A study of Homo sapiens with 17 samples.

Results

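The mRNAs of ACTB, ACTG1, TUBA1B and TUBB were followed through the eCLIP peak lists of 6 proteins in 293T, an established line derived from human embryonic kidney. A peak belonged to a gene when its midpoint lay in the gene's span on the same strand in the hg19 build. By this rule 463 of 389788 peaks belonged to the 4 genes. ACTB had 135 of them, ACTG1 131, TUBA1B 81 and TUBB 116. The spans were 3454 nt on the minus strand of chromosome 7 for ACTB, 2896 nt on the minus strand of chromosome 17 for ACTG1, 3739 nt on the minus strand of chromosome 12 for TUBA1B and 5043 nt on the plus strand of chromosome 6 for TUBB. A single list had as few as 20 peaks in these spans (VIM replicate 2) and as many as 61 (ZNF184 replicate 1). No list had a peak on the opposite strand of any of the 4 spans.

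In eCLIP, cells are crosslinked with ultraviolet light, 1 protein is collected with an antibody, and the RNA fragments bound to it are sequenced. Plated 293T cells had been given 400 mJ/cm2 of light at 254 nm. The proteins collected were AIFM1 (a mitochondrial flavoprotein), NUMA1 (which organises spindle poles), RANGAP1 (which stimulates GTP hydrolysis by Ran), RNF219 (a RING finger protein later described as a partner of the CCR4-NOT deadenylase), VIM (vimentin, of intermediate filaments) and ZNF184 (with zinc fingers). RNF219 had 1 library and the other 5 proteins 2 replicates each, and each protein had 1 size-matched input, the RNA of the same gel window without immunoprecipitation. The labels name no genetic change and no drug in any group.

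ACTB and ACTG1 encode the cytoplasmic actins, whose filaments shape the cell cortex and drive movement. TUBA1B and TUBB encode an alpha and a beta tubulin, which pair and polymerise into microtubules. All 4 are housekeeping genes with abundant mRNAs in dividing cells, and tubulin mRNAs are known to be degraded on ribosomes when free tubulin accumulates. The ACTB gene opens with a short untranslated exon followed by its longest intron, and in each of these genes the last exon carries the 3′ untranslated region. ACTB and ACTG1 have closely similar coding sequences, TUBA1B and TUBB each resemble other genes of their own alpha or beta family, and these genes have processed pseudogenes, so reads there could be split between copies. The sources used here do not say how reads with several matches were handled.

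Each list gave the authors' log2 fold of a peak over the size-matched input and the authors' −log10 p of that fold. The whole lists held 10682 to 63198 peaks. The input was 0.534 times as deep as the eCLIP library in AIFM1 replicate 2 and 4.84 times as deep in VIM replicate 1. To reach 8-fold, a log2 fold of 3, with a −log10 p of at least 3 therefore took 5 eCLIP reads beside 1 input read in VIM replicate 1 and 23 in AIFM1 replicate 2, the lowest and the highest number. Both replicates of a protein share 1 input, so the protein and its input cannot be told apart in any difference between proteins. The median log2 fold over all peaks of a library ranged from 0.68 to 2.27.

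ACTB had the lowest fold of the 4 mRNAs when the median library is taken for each. The median log2 fold over its peaks was −1.29 in the lowest library, VIM replicate 2, −0.018 in the median library and 0.66 in the highest, ZNF184 replicate 2. It was below input in 6 of 11 libraries and below the median of all peaks in 11 of 11. By protein, the median log2 fold of ACTB averaged 0.55 ± 0.16 for ZNF184, 0.44 ± 0.23 for AIFM1, 0.17 ± 0.26 for RANGAP1, −0.62 ± 0.47 for NUMA1 and −0.74 ± 0.78 for VIM (SD, n = 2 each), and was −0.13 in the single RNF219 library. AIFM1 and ZNF184 were above input in both libraries, while NUMA1 and VIM were below it in both. These medians rest on different peaks in each library. At the 2 ACTB sites (merged peaks) with a peak in all 11 libraries, the ZNF184 replicates were below input, at −0.18 and −0.56. VIM had 0.40 and −0.86 there, AIFM1 0.28 and 0.53 and NUMA1 −1.22 and −0.14. The ACTB median minus that of all peaks of the library averaged −1.42 ± 0.92 on the log2 scale (SD, n = 6 proteins). In an exact permutation test by sign flips, two-sided, p was 0.03125, the smallest that 6 proteins allow, and 0.09375 after Benjamini-Hochberg adjustment over the 18 tests made here. The number of input reads moved with this result. Reads were recovered from the authors' fold and p. Where these did not fix them, as in all peaks below input, the least whole numbers with the same ratio were used. Some deeply read peaks may thus count as having fewer than 10 input reads. Peaks with at least 10 input reads made up 6.98% to 89.7% of the peaks of the 4 genes, against 3.76% to 28.6% of all peaks, and the share was higher for the 4 genes in every library except AIFM1 replicate 1. Among such peaks alone the difference for ACTB was −0.42 (exact permutation p = 0.15625), and with a length-weighted mean over its peaks it was −0.98 (exact permutation p = 0.0625).

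ACTG1 lay above input in most libraries. Its median log2 fold was −1.77 in the lowest library, VIM replicate 2, 0.36 in the median library and 1.10 in the highest, AIFM1 replicate 2. It averaged 1.05 ± 0.062 for AIFM1, 0.72 ± 0.13 for ZNF184, 0.33 ± 0.013 for NUMA1, 0.17 ± 0.27 for RANGAP1 and −0.94 ± 1.17 for VIM (SD, n = 2 each), and was 1.07 for RNF219. Only the VIM libraries were both below input, at −0.11 and −1.77. These medians depend on which peaks were called. Of the NUMA1 peaks on ACTG1, 6 of 11 and 5 of 11 lay in the last 20% of the span. At the 2 ACTG1 sites with a peak in all libraries, NUMA1 had −1.10 and −0.29 and VIM 0.097 and −2.33. RANGAP1 replicate 2 (−0.18), RNF219 (−0.45) and ZNF184 replicate 2 (−0.41) were also below input there, and the remaining libraries above it. Over all its peaks, the difference of ACTG1 from the library median was −0.96 ± 1.20 (SD, n = 6 proteins, exact permutation p = 0.125), within the spread between proteins.

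TUBA1B and TUBB, the tubulins, differed in which proteins stood highest. The median log2 fold of TUBA1B was −0.82 in the lowest library, VIM replicate 1, 0.56 in the median library and 1.74 in the highest, ZNF184 replicate 2. ZNF184 averaged 1.54 ± 0.28 on TUBA1B and AIFM1 1.17 ± 0.14 (SD, n = 2 each). The 2 VIM libraries disagreed on TUBA1B, at −0.82 and 1.71 with 3 peaks each. The median log2 fold of TUBB was −0.60 in the lowest library, VIM replicate 2, 0.45 in the median library and 1.43 in the highest, RNF219. AIFM1 averaged 1.23 ± 0.071 on TUBB, ZNF184 0.64 ± 0.20, RANGAP1 0.33 ± 0.17, VIM −0.53 ± 0.091 and NUMA1 −0.57 ± 0.0029 (SD, n = 2 each). VIM and NUMA1 were thus below input on TUBB in all 4 of their libraries, and every library of the other 4 proteins was above it. Neither tubulin differed from the library median beyond the spread between proteins. The difference was −0.70 ± 0.86 for TUBA1B and −0.94 ± 1.24 for TUBB (SD, n = 6 proteins), with an exact permutation p of 0.15625 for each.

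**Figure D1:**
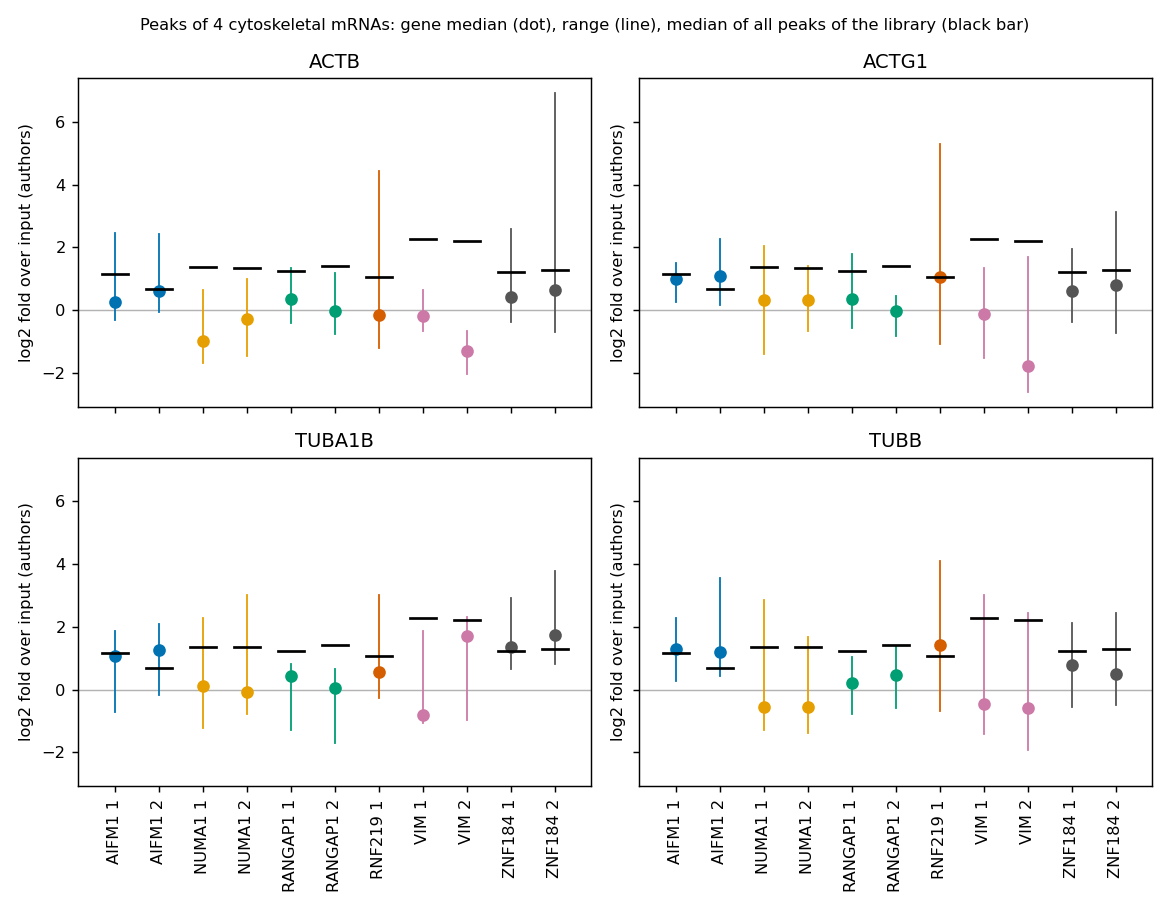
Median log2 fold over input of the peaks of ACTB, ACTG1, TUBA1B and TUBB in each of 11 eCLIP libraries (dots), with the lowest and highest peak (coloured lines) and the median of all peaks of the library (black bars). The ACTB dot lies below the black bar in 11 of 11 libraries, and the highest single peak reaches 6.90 in ZNF184 replicate 2.

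The levels were compared between the genes within libraries, where the library median cancels. ACTB minus TUBA1B was −0.72 ± 0.38 and ACTB minus TUBB −0.48 ± 0.60 on the log2 scale (SD, n = 6 proteins), with ACTB lower in 6 of 6 proteins each time. The exact permutation p was 0.03125 for both and 0.09375 after adjustment over the 18 tests, so neither passed the adjustment. Without VIM replicate 2 the differences were −0.41 from TUBA1B (exact permutation p = 0.125) and −0.39 from TUBB (exact permutation p = 0.25), and the one from TUBB also missed the threshold without NUMA1 replicate 1 at −0.42, RANGAP1 replicate 2 at −0.43 and ZNF184 replicate 1 at −0.43. Without RNF219 the differences were −0.72 from TUBA1B and −0.26 from TUBB, and both had an exact permutation p at 0.0625, below which 5 proteins cannot go. ACTB minus ACTG1 was −0.46 ± 0.56 (SD, n = 6 proteins, exact permutation p = 0.15625), and −0.50 without VIM replicate 2 (exact permutation p = 0.03125). The other 3 of the 6 pairs had mean differences between −0.26 and 0.24 and exact permutation p-values of 0.40625 or more. ACTG1, TUBA1B and TUBB were therefore not ordered beyond their spread.

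Libraries of the same protein lay closer together than other pairs of libraries in their TUBB and ACTG1 levels. For TUBB, relative to the library median, replicates differed by 0.174 on average, against 1.34 over all ways of pairing the 10 libraries of the 5 proteins that have replicates. The exact permutation p, one-sided, was 0.00106, the smallest that these pairings allow, and 0.0190 after adjustment over the 18 tests. For ACTG1 the replicates differed by 0.565 and all pairings by 1.36 (exact permutation p = 0.00317, adjusted 0.0286). The same values were 0.648 and 1.20 for ACTB (exact permutation p = 0.0116, adjusted 0.0698) and 0.875 and 1.28 for TUBA1B (exact permutation p = 0.0857, adjusted 0.193). The difference between proteins was thus larger than that between replicates for TUBB and ACTG1 after adjustment, and was not called for ACTB and TUBA1B. Both replicates of a protein share 1 input, which enters both of their folds, so protein and input cannot be told apart in this closeness. At sites with a peak in all libraries the ACTG1 replicates differed by 0.97, which did not pass (exact permutation p = 0.0603), and the TUBA1B replicates by 0.16, which passed (exact permutation p = 0.00106).

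Peaks of all lists merged into 83 sites, of which 8 had a peak in all 11 libraries and 16 in 1 library. At the 8 shared sites the 6 proteins could be compared on the same RNA stretch. AIFM1 was above input at 8 of 8 sites in both libraries, and RANGAP1 at 7 of 8 in both. ZNF184 was above input at 5 and 4 of the 8 sites, VIM at 3 and 0, RNF219 at 3 and NUMA1 at 0 and 2. Of all peaks of a library, only 7.47% (RANGAP1 replicate 2) to 21.6% (RNF219) were below input. The counts for AIFM1 and RANGAP1 thus do not set these sites apart from other peaks of their lists. Each site was also valued by its highest peak, which can raise the counts. AIFM1 had the highest mean at 6 of the 8 sites and RANGAP1 at 2, and VIM had the lowest at 5, NUMA1 at 2 and RNF219 at 1. The AIFM1 folds rested on few input reads, with a median of 3 per peak of these genes in each library.

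The highest fold at a shared site was on TUBB, in the middle of the span at chr6:30690314-30690410. The log2 fold there was 2.28 and 3.56 in the AIFM1 replicates, −0.74 and −0.57 in those of NUMA1, 0.32 and 0.49 in those of RANGAP1, 0.40 in RNF219, −0.47 and −1.70 in those of VIM and 0.97 and 0.75 in those of ZNF184. AIFM1 stood above the other 9 libraries in both replicates, with 8 and 22 eCLIP reads beside 2 and 1 input reads. The exact 95% interval of the log2 fold was −0.044 to 5.55 and 0.93 to 8.92, so the size is poorly fixed. A second TUBB site, at the 5′ end at chr6:30688145-30688220, had log2 folds of 2.28 and 2.68 in the AIFM1 replicates and −1.23 to 1.18 in the other 9 libraries.

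At the 5′ end of ACTB, chr7:5570152-5570233, the RANGAP1 replicates had the highest log2 folds at 1.35 and 1.20, and AIFM1 had 1.17 and 0.56. The remaining 7 libraries ranged from −1.22 to 0.40. At the next shared ACTB site, chr7:5569166-5569300, the RANGAP1 replicates stood at 0.90 and 0.64 and all 11 libraries lay between −0.93 and 0.90. ACTG1 had its lowest mean at chr17:79478950-79479068, with log2 folds from −2.60 in VIM replicate 2 to 1.06 in AIFM1 replicate 1. The TUBA1B site shared by all libraries, chr12:49525077-49525161 near the 5′ end, had 1.87 and 1.49 in the AIFM1 replicates, 1.18 and 1.35 in those of ZNF184 and −0.27 in RNF219. NUMA1 and VIM were below input there in all 4 libraries, between −1.24 and −0.77.

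**Figure D2:**
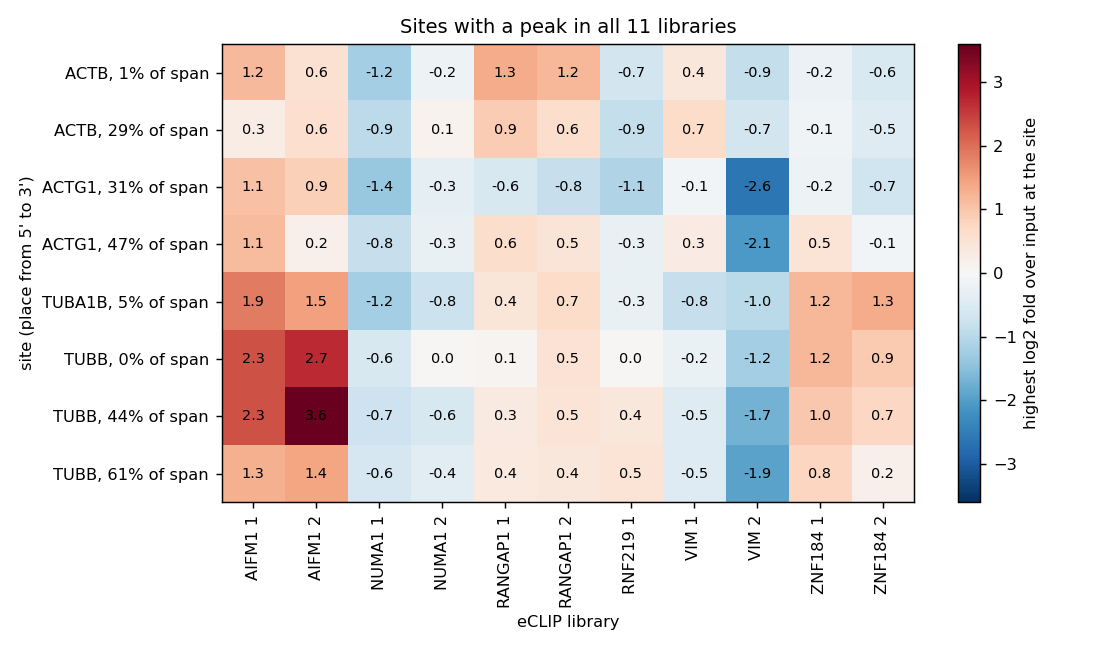
Highest log2 fold over input at each of the 8 sites that had a peak in all 11 libraries, with sites from 5′ to 3′ within each gene (rows) and libraries in columns, red above and blue below input. Both AIFM1 columns are above 0 at 8 of 8 sites, and NUMA1 replicate 1 and VIM replicate 2 are above 0 at none.

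The peaks of the 4 genes that passed a log2 fold of 3 with a −log10 p of 3 came from 2 libraries. The total was 13 of 463 peaks, with 7 of 135 on ACTB, 2 of 131 on ACTG1, 2 of 81 on TUBA1B and 2 of 116 on TUBB. Of all peaks in a list, 0.214% (AIFM1 replicate 2) to 5.29% (VIM replicate 1) passed, so the total alone does not set these genes apart. ZNF184 replicate 2 held 7 of its 51 peaks, or 13.7%, where 4.82% of all its peaks passed. RNF219 held 6 of its 55, or 10.9%, where 0.926% of all its peaks passed. Peaks of the 4 genes had at least 10 input reads more often than all peaks in both libraries. The shares were 68.6% against 25.3% for ZNF184 replicate 2 and 45.5% against 7.32% for RNF219. The peaks past the thresholds themselves had 1 to 7 input reads in ZNF184 replicate 2, some of these being least numbers, and 1 to 2 in RNF219. The part of read depth in the shares that passed was not tested.

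The other 9 libraries had 0 such peaks among 20 to 61, which allows a share of up to 4.92% in the longest list and 15% in the shortest, counting error only. Of all peaks, 0.216% and 0.214% passed in the AIFM1 replicates, 1.51% and 0.877% in those of NUMA1 and 1.52% and 2.99% in those of RANGAP1. In the VIM replicates 5.29% and 4.50% passed, and in ZNF184 replicate 1 3.15%. In each of these 9 libraries the limit lay above the share of all peaks, so a share like that of the whole list cannot be told from 0 with this number of peaks.

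RNF219 had its strong peaks near the 3′ ends. Of the 6, 5 lay in the 3′ part, the last 20% of a span, on ACTB, ACTG1 and TUBB, with 19 to 56 eCLIP reads beside 1 or 2 input reads. Of all 55 RNF219 peaks of the 4 genes, 16 lay in the 3′ part. Where the strong RNF219 peaks of other genes lay was not counted. A trait of these mRNAs thus cannot be told from one of the whole library. On ACTB the log2 fold of RNF219 was 4.44 at chr7:5567171-5567236, with 31 eCLIP reads beside 1 input read and an exact 95% interval of 1.86 to 9.79. The other 4 libraries with a peak at that site had between −0.73 and −0.018. The neighbouring ACTB peak, chr7:5567038-5567128, had a log2 fold of 3.77 in RNF219 from 39 eCLIP reads and 2 input reads, against −0.15 in RANGAP1 replicate 1 and −1.96 in VIM replicate 2. Among the libraries with a peak at these sites, 5 at the first and 3 at the neighbouring one, RNF219 alone was above input.

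On ACTG1, RNF219 had a log2 fold of 5.30 at chr17:79477427-79477515, from 56 eCLIP reads and 1 input read, with an exact 95% interval of 2.76 to 10.6. The merged site held peaks of 3 other libraries, at 0.43 and 0.73 in the NUMA1 replicates and −0.10 in RANGAP1 replicate 2. Nearer the 3′ end, chr17:79477187-79477228 had 2.53 in RNF219 and missed the fold threshold, and NUMA1 replicate 1 had 0.33 at that site. On TUBB the 2 peaks past the thresholds were chr6:30692678-30692717, with a log2 fold of 3.74, and chr6:30693059-30693102, with 4.07. Only ZNF184 replicate 2 also had a peak at these sites, at 2.10 and 1.67. Between them, RNF219 had 3.07 and 3.30 at a pair of further sites from 12 and 14 eCLIP reads beside 1 input read, which missed the p threshold, while ZNF184 replicate 2 had 0.93 and 0.20.

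The remaining RNF219 peak past the thresholds was in the middle of TUBA1B, at chr12:49523479-49523506, with a log2 fold of 3.01 from 23 eCLIP reads and 2 input reads. RANGAP1 had −1.30 and −1.68 at that site, NUMA1 replicate 2 had −0.74 and the ZNF184 replicates 0.73 and 0.81. RNF219 was alone there in being past the thresholds, with an exact 95% interval of 0.99 to 6.14. In the 3′ part of TUBA1B, RNF219 reached 2.76, below the 3.42 of ZNF184 replicate 2 within the same merged site.

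Over all 4 genes, RNF219 had a peak at 14 sites in the 3′ part, each shared with another protein, and its log2 fold was the highest of the protein means at 12 of them. In the rest of the spans it was the highest at 8 of 30 shared sites. AIFM1 was the highest at 2 of 6 shared sites in the 3′ part and at 20 of 36 elsewhere, and ZNF184 at 2 of 10 and 14 of 46. RNF219 has a single library and no replicate check, so these counts describe that library. Set against single libraries instead of protein means, RNF219 was the highest at 11 of the 14 sites in the 3′ part. Only libraries with a peak at a site entered, and some of these sites had peaks in 2 libraries only.

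ZNF184 replicate 2 had its strong peaks near the 5′ ends of the gene spans. A span is genomic and holds introns, and exon and intron were not told apart here. The ACTB peaks past the thresholds lay between the shared sites at chr7:5570152-5570233 and chr7:5569166-5569300, and not at either of them. Of its 7, 5 lay in the 5′ part, the first 20% of a span, 4 on ACTB and 1 on ACTG1. Of all 51 peaks of this library in the 4 genes, 12 lay in the 5′ part, and its strong peaks in other genes were not placed. The highest, chr7:5569801-5569872, had a log2 fold of 6.90 from at least 78 eCLIP reads beside 1 input read. At that site NUMA1 had 0.66 and 0.99 and no other library had a peak. At chr7:5569979-5570051 the log2 fold was 4.80, from at least 73 eCLIP reads beside 4, against 1.60 in AIFM1 replicate 1 and 0.20 in NUMA1 replicate 1. Both peaks carried the lowest p that the authors' exact test returned, a −log10 p of 15.7, so their reads are given as least numbers. The next pair touch each other and may be pieces of 1 site. At chr7:5569596-5569654 the log2 fold was 4.36 from 67 eCLIP reads and 5 input reads, with a −log10 p of 19.3 and an exact 95% interval of 3.06 to 6.03. At chr7:5569655-5569664, 10 nt long, it was 3.49 from 22 eCLIP reads and 3 input reads.

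ZNF184 replicate 1 had no peak at these 4 ACTB sites. Its median log2 fold in the 5′ part of ACTB was −0.22, from 1 peak, against 4.36 from 5 peaks in replicate 2. The remaining ACTB peak of replicate 2, chr7:5569454-5569497, lay just past the 5′ part and was the one the replicates shared. Its log2 fold was 3.61 from 40 eCLIP reads and 5 input reads in replicate 2, and 2.58 from 22 eCLIP reads and 5 input reads in replicate 1, with exact 95% intervals of 2.27 to 5.31 and 1.15 to 4.34. AIFM1 replicate 1 had 0.64 there.

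ACTG1 had a 5′ peak past the thresholds in ZNF184 replicate 2 at chr17:79479417-79479464, with a log2 fold of 3.13 from 40 eCLIP reads and 7 input reads. VIM replicate 2 had 1.71 at that site and ZNF184 replicate 1 had no peak. Nearer the 5′ end, at chr17:79479569-79479621, the log2 fold in ZNF184 replicate 2 was 2.69. On TUBA1B the strong peak of ZNF184 replicate 2 was at the 3′ end, chr12:49521577-49521634, with 3.42 from 21 eCLIP reads and 3 input reads. The highest log2 fold of ZNF184 replicate 1 in the merged site around it was 1.93.

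**Figure D3:**
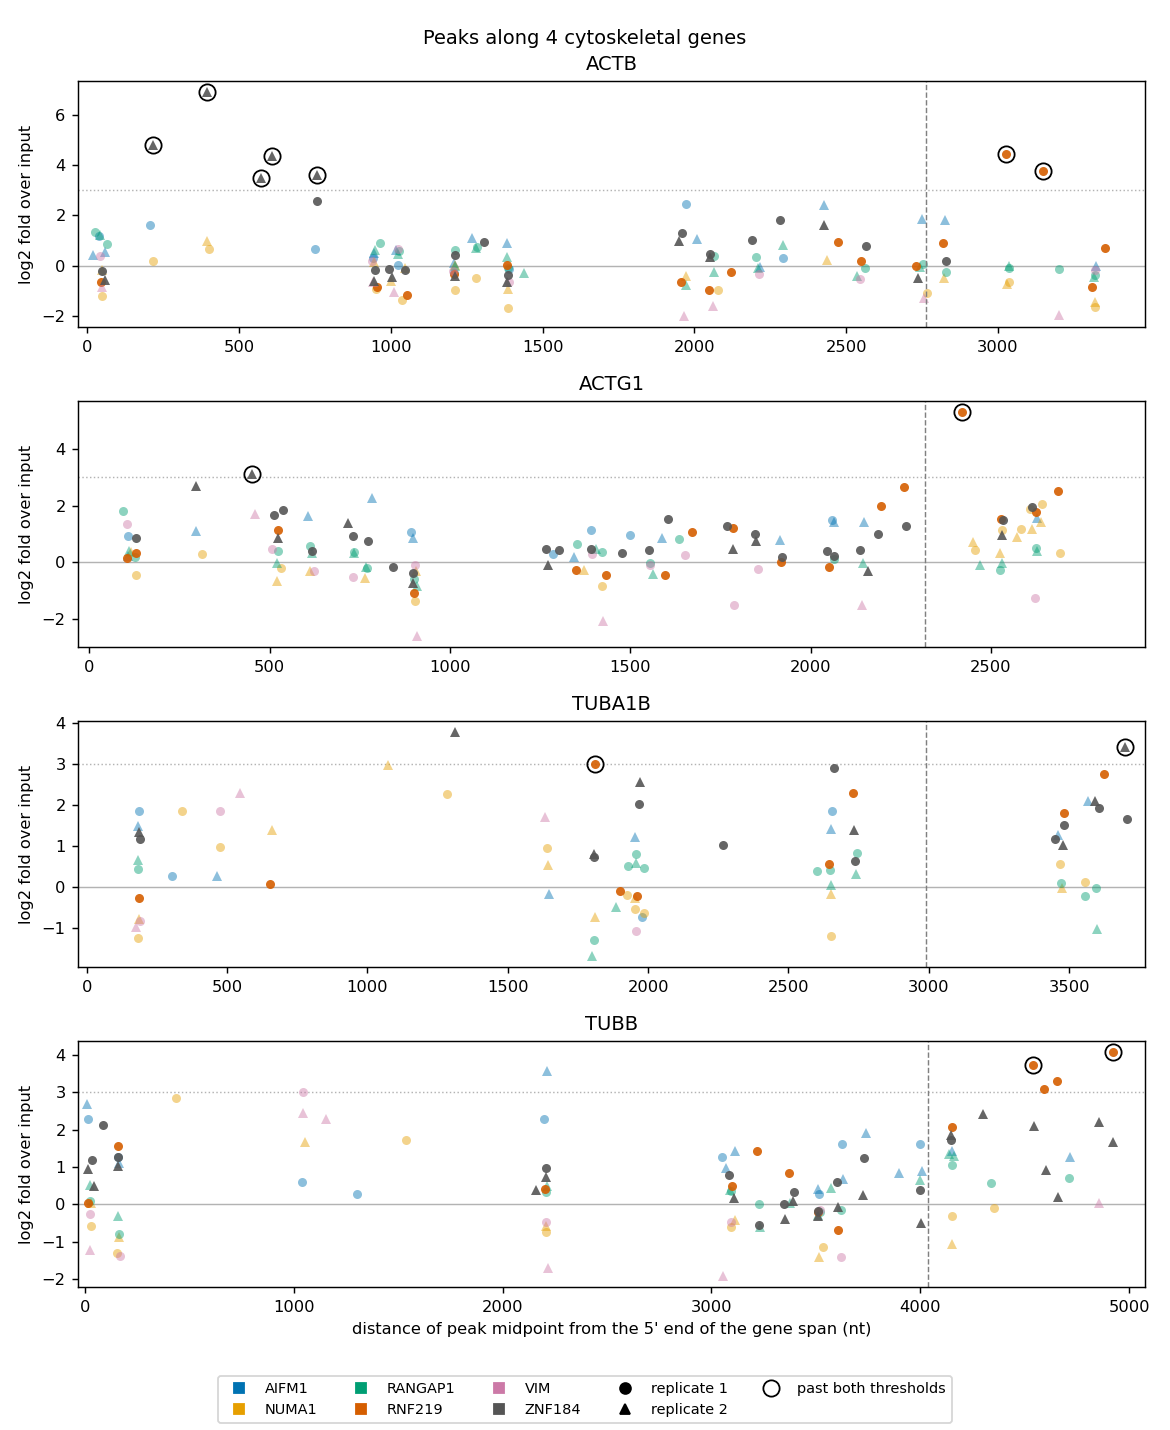
Log2 fold over input of all 463 peaks against the distance of their midpoint from the 5′ end of the gene span in nt, with circles for replicate 1, triangles for replicate 2 and rings around the 13 peaks past both thresholds. The dotted line is a log2 fold of 3 and the dashed line the start of the 3′ part. Ringed RNF219 peaks lie right of the dashed line in ACTB, ACTG1 and TUBB, and ringed ZNF184 replicate 2 peaks lie near the left edge in ACTB and ACTG1.

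The 3′ part was then compared with the rest of each span over the 6 proteins. The spans are genomic, so the rest holds introns as well as exons, and these were not separated. In RNF219 the median log2 fold in the 3′ part was 0.88 on ACTB, against −0.35 in the rest, and 2.15 on ACTG1, against 0.17 in the rest. It was 2.29 against 0.073 on TUBA1B and 3.30 against 0.44 on TUBB. RNF219 had the largest difference of the 6 proteins in each gene, at 1.23, 1.99, 2.21 and 2.85 in the order given.

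NUMA1 differed between the actins. On ACTG1 its 3′ part was above the rest by 1.61 and 1.18 in the replicates, while on ACTB it was −0.12 and −0.62. The log2 fold of NUMA1 at chr17:79477233-79477294, in the 3′ part of ACTG1, was 2.04 and 1.43. At the last ACTB site, chr7:5566855-5566936, it was −1.66 and −1.46. ZNF184 also had the 3′ part above the rest on ACTG1, by 1.25 and 0.22, on TUBA1B, by 0.48 and 0.71, and on TUBB, by 1.05 and 1.65. On ACTB it was −0.27 in ZNF184 replicate 1, and replicate 2 had no peak in the 3′ part. In RANGAP1 the 3′ part minus the rest was −0.76 and −0.24 on ACTB, −0.47 and −1.20 on TUBA1B and 0.68 and 0.92 on TUBB. On ACTG1 its values were −0.24 and 0.

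Over the proteins, none of the 4 genes passed the test of the 3′ part against the rest. The mean difference was 1.08 ± 1.02 for TUBB (SD, n = 6 proteins, exact permutation p = 0.0625), positive in 5 of 6 proteins, and 1.16 without NUMA1 replicate 2 (exact permutation p = 0.03125). It was 0.57 ± 1.11 for ACTG1 (SD, n = 6 proteins, exact permutation p = 0.25) and 0.00084 ± 0.66 for ACTB (n = 6 proteins, exact permutation p = 1). For TUBA1B it was 0.56 ± 1.09 over the 5 proteins with peaks in both parts (exact permutation p = 0.375, where the smallest possible is 0.0625), VIM having none in the 3′ part. Without RNF219 the mean differences were 0.73 for TUBB, 0.29 for ACTG1, −0.25 for ACTB and 0.14 for TUBA1B.

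**Figure D4:**
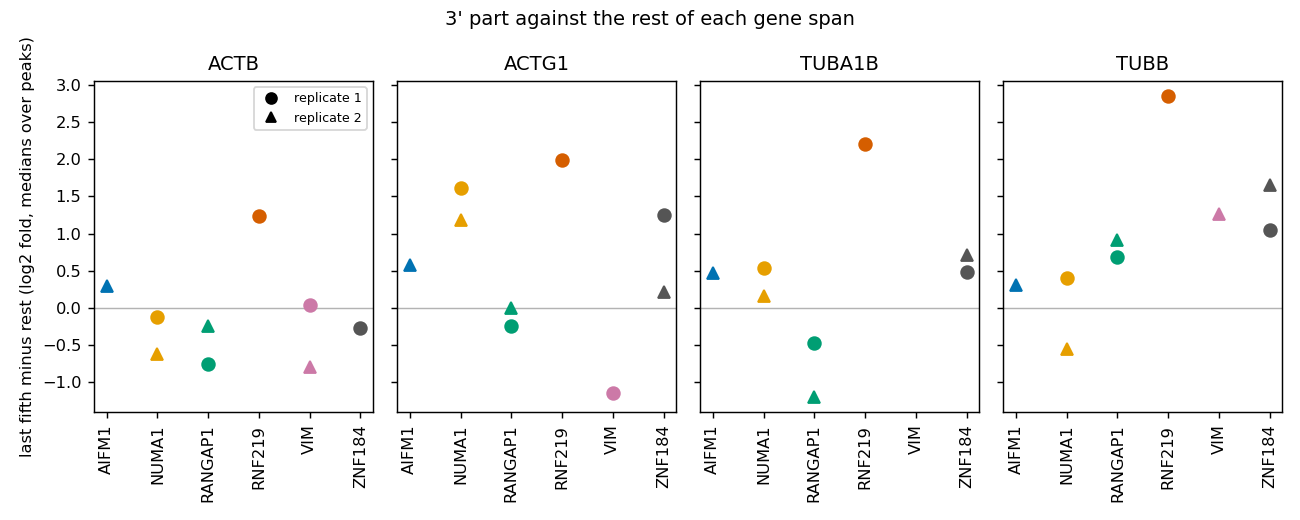
Median log2 fold of peaks in the 3′ part (last 20%) of a gene span minus that in the rest, by protein, with circles for replicate 1 and triangles for replicate 2. RNF219 is the highest point in each panel, at 1.23 for ACTB and 2.85 for TUBB, and libraries with no peak in the 3′ part have no point.

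Among sites with a peak in at least 6 libraries, the means over libraries were highest near the 3′ ends in 3 of the 4 genes. The highest mean log2 fold on ACTG1 was 1.05 at chr17:79477233-79477294, on TUBA1B 1.23 at chr12:49521577-49521866 and on TUBB 1.01 at chr6:30692286-30692333. On ACTB the highest was 0.27, at chr7:5568075-5568306 in the middle of the span, and the lowest was −0.49, at chr7:5566855-5566936 by the 3′ end. Each of these means rests on 7 to 10 libraries and a different set of them, so they are given as levels only.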

How the data were processed

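The data were 11 eCLIP peak lists from 293T cells, 1 per library, with 17 samples in all counting 6 inputs, which entered only through the folds. The sample titles gave the groups and the replicate numbers. Per the submitters' processing notes, cutadapt, STAR, GATK, Picard, SAMtools and the build hg19 were used, with no versions. The sources used here do not name the peak caller. The authors deposited per peak a −log10 p against the size-matched input, 0 below input and at most 400, and a log2 fold over that input. Peaks were called per library and replicates were not pooled.

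Folds were ratios of whole reads times 1 constant per library, the input depth over the eCLIP depth. With it, 99.7% to 99.9% of folds in a library were whole ratios, to within 1e-09 of the ratio, and 98.2% to 99.8% of peaks with a p had settled reads, matching it to within 0.005 on the log10 scale. The recovery was tested on simulated data. Exact 95% intervals (Clopper-Pearson) cover counting error only, and PCR duplicates may remain. A −log10 p of 15.7 was treated as a bound. Input reads of 0 cannot be told from 1. For peaks below input, and others whose reads were not settled, reads are the least whole numbers with the ratio. Results with at least 10 input reads may therefore leave out peaks that had more.

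The level of a gene was the median log2 fold of its peaks. Replicates were averaged, and exact permutation tests flipped signs over 6 protein means or enumerated the pairings of 10 libraries. Peaks sharing at least 1 nt were merged into sites, valued by their highest peak. Sites named are the 3 highest or lowest by mean among those in at least 6 libraries, peaks past the thresholds, and neighbours or shared sites chosen after their values were seen. The replicates are called biological by the series, and how they were grown is not stated. Members, lists and tests were chosen with earlier results of these data known. Exon and untranslated parts, sequences and other cytoskeletal genes were not analysed here. Python 3.11.15, numpy 2.4.6, pandas 2.3.3, scipy 1.17.1 and matplotlib 3.10.9 were used.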

Additional observations from a re-analysis of the deposited data

Results flagged for a closer look

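Several levels were above input in both libraries of one protein and below it in both libraries of another, and the differences between proteins were not tested one by one. On ACTB the mean log2 fold of AIFM1 exceeded that of NUMA1 by 1.06 and that of VIM by 1.18, and ZNF184 exceeded them by 1.17 and 1.28. On ACTG1, AIFM1 exceeded VIM by 1.99, ZNF184 exceeded VIM by 1.66 and NUMA1 exceeded VIM by 1.27. On TUBB, AIFM1 exceeded NUMA1 by 1.80 and VIM by 1.76, RANGAP1 exceeded them by 0.897 and 0.863, and ZNF184 by 1.21 and 1.17. Each protein has its own input, so protein and input cannot be told apart in these 13 differences. The levels also rest on different peaks in each library, and some signs changed at sites shared by all libraries. On ACTB, ZNF184 was below input there in both libraries and VIM replicate 1 above it. On ACTG1, NUMA1 was below input in both, ZNF184 replicate 2 below it and VIM replicate 1 above it. The signs given for TUBB, and those of AIFM1 on each gene, stayed.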

How the results depend on the processing

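In this section a result is past the test when its exact permutation p, without adjustment, is below 0.05. Placing peaks by any overlap of at least 1 nt gave identical values throughout, so it was no separate check. The level of ACTB against the library median was −0.98 with a length-weighted mean, −0.42 with at least 10 input reads and −0.056 against input without centring, past the test in none of them. Without centring, ACTG1 stood at 0.40, TUBA1B at 0.66 (exact permutation p = 0.03125) and TUBB at 0.42, all above input and so opposite in sign. With sites common to all libraries, chosen after seeing the data, the ACTG1 level was −1.59 (exact permutation p = 0.03125). Replicates of ACTB differed by 0.53 with at least 10 input reads, 0.54 without centring and 0.78 at common sites, and those of ACTG1 by 0.97 at common sites, no longer past the test. In the main setting ACTB had an exact permutation p of 0.0116, and was not called after adjustment. The TUBA1B replicates passed the test at 0.63 with the weighted mean (exact permutation p = 0.0476), 0.24 with at least 10 input reads (exact permutation p = 0.00952) and 0.16 at common sites (exact permutation p = 0.00106). ACTB minus TUBA1B was −0.40, −0.42 and −0.38 under the weighted mean, at least 10 input reads and common sites, and ACTB minus TUBB −0.20, −0.29 and −0.51, and −0.38 with peaks of at least 20 nt, none past the test. ACTG1 minus TUBB turned to 0.056 with at least 10 input reads and was −0.58 at common sites (exact permutation p = 0.03125). ACTB minus ACTG1 turned to 0.063 and TUBA1B minus TUBB to −0.13 at common sites. The 3′ part minus the rest turned to −0.036 for ACTB with peaks of at least 20 nt and to −0.27 with at least 10 input reads, and to −0.19 for TUBB with the span split at its midpoint. The cause of these changes was not tested.

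With the replicate number as a block, the ACTB difference of the 3′ part was −0.0044, and no result moved across an unadjusted p of 0.05. The exact permutation p of replicate closeness rose to 0.00833 for TUBB and 0.0333 for ACTG1. The adjustment over the 18 tests was not repeated there, so whether these 2 calls hold under the block was not tested. Deviations of same-numbered libraries over 818 sites correlated by −0.236 to 0.363 over 10 pairs of proteins, so not every pair was positive and the numbers were not taken as pairs. The 13 peaks past the thresholds became 5 at a log2 fold of 4 with a −log10 p of 5 and 47 at a log2 fold of 1 with a −log10 p of 3. They were 6 without ZNF184 replicate 2 and 7 without RNF219. The share of all peaks past the changed thresholds was not counted, so 5 and 47 cannot be set against the whole lists.

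Leaving out 1 library at a time gave levels of −1.50 to −1.33 for ACTB, −1.16 to −0.83 for ACTG1, −0.92 to −0.48 for TUBA1B and −1.20 to −0.91 for TUBB. Replicate differences were 0.55 to 0.77, 0.31 to 0.71, 0.44 to 1.04 and 0.12 to 0.21 in the same order of genes. The 3′ part minus the rest was −0.25 to 0.071, 0.29 to 0.92, 0.14 to 0.63 and 0.73 to 1.24, and for TUBB it passed the test without NUMA1 replicate 2, at 1.16. ACTB minus ACTG1 was −0.51 to −0.31, ACTB minus TUBA1B −1.02 to −0.41, ACTB minus TUBB −0.56 to −0.26, ACTG1 minus TUBA1B −0.61 to 0.089, ACTG1 minus TUBB −0.15 to 0.11 and TUBA1B minus TUBB 0.018 to 0.46. Without RNF219, 5 proteins cannot reach the threshold.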

Other observations

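A TUBB site early in the span, at chr6:30689175-30689225, had peaks in both VIM libraries, with log2 folds of 3.01 and 2.45 from 5 eCLIP reads beside 3 input reads in each. NUMA1 replicate 2 had 1.67 and AIFM1 replicate 1 0.60 there. The VIM peaks missed the p threshold, at a −log10 p of 2.28 and 1.69. On TUBA1B, chr12:49523979-49524046 had 3.78 in ZNF184 replicate 2, from 9 eCLIP reads beside 1 input read, and 2.26 in NUMA1 replicate 1. These sites were chosen after their values were seen.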
